A study of Rattus norvegicus and Mus musculus with 251 samples.

Results

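Bfsp2, AA465934 and Hps1 are 3 genes with large changes in the brains of morphine-treated mice, out of 46078 gene rows in the mouse count table. Each was chosen by its measured change against saline in 1 comparison of these same libraries: Bfsp2 under chronic morphine in the prefrontal cortex (PFC), AA465934 under chronic morphine in the nucleus accumbens (NAc), and Hps1 at 2 weeks after morphine in the NAc. Those 3 values are therefore given as descriptions, and tests are reported only for the other comparisons. Within the region that chose a gene, tests against saline reuse the saline libraries that chose it and are not independent of the choice. Each gene was also set beside Gm10263, which was either present or all but absent in a given library.

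The RNA came from 0.5 mm tissue punches of mice labelled C57BL6J, a common inbred strain, and was sequenced as total RNA in paired reads of 75 bases. Saline-treated mice (6 PFC and 7 NAc libraries) were compared with mice under chronic morphine (8 and 8), mice taken 24 h after morphine (9 and 9) and mice taken 2 weeks after morphine (7 and 8). All groups held libraries labelled female and male, and the labels used here give no dose, schedule, age or animal identity. Libraries carry numbers, and 30 numbers occurred in both regions. The labels do not say that libraries came from separate animals, so p-values measure the spread between libraries.

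Bfsp2 encodes phakinin, which pairs with filensin to form the beaded intermediate filaments of lens fibre cells, and it is known from the eye rather than the brain. Hps1 encodes a subunit of BLOC-3, which it forms with Hps4; the complex activates small Rab GTPases and is needed to build lysosome-related organelles such as melanosomes and platelet dense granules. AA465934 is an RNA with no annotated coding sequence that hosts Snord7, a C/D box small nucleolar RNA, in an intron; RNAs of that class guide methylation of other RNAs. Gm10263 is annotated as a processed pseudogene, a copy of a spliced messenger RNA, here that of Rps28, a protein of the small ribosomal subunit.

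All positions and sequences here are from the GENCODE vM21 annotation of GRCm38, the mouse build named in the submitters' processing notes. AA465934 (ENSMUSG00000093483) lies at chr11:83291699-83294632 on the plus strand. Its longest spliced form, AA465934-201, has 471 bases in 2 exons, and Snord7, at chr11:83294304-83294400 on the plus strand, lies between the exons of 4 of its 5 annotated forms. Host and guest are shown because they were counted as separate genes: for AA465934 the 200 bases around its exon junction, between whose exons Snord7 lies, with exon 2 in capitals, and for Snord7 the whole RNA with its C box and D box in capitals.
AA465934: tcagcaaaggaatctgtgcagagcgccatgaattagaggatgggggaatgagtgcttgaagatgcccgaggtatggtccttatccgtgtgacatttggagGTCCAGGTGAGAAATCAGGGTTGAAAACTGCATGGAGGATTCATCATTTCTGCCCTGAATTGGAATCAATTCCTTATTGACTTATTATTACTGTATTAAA
Snord7: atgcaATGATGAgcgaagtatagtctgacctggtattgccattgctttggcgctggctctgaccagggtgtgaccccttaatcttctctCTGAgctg

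Gm10263 (ENSMUSG00000066407) lies at chr13:73317844-73318143 on the plus strand, and Rps28 at chr17:33819027-33824562 on the minus strand. Over the 210 coding bases of Rps28 the pair differed at 1 base, which is in capitals in the lines below, so reads from the one can closely resemble reads from the other. Counting from the first base of the Rps28 start codon, the difference is G163A, with the Rps28 base first.
Rps28: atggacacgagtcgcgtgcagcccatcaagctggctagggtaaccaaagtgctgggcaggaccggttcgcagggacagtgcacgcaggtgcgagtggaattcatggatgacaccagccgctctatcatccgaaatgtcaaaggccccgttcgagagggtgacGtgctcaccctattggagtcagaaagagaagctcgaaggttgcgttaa
Gm10263: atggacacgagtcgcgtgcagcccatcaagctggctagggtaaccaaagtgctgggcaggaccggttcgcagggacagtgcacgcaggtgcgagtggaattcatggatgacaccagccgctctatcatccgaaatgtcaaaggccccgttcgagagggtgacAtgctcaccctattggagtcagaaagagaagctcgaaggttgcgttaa
Of the 226 stretches of 75 bases, the read length, in Gm10263, 59.3% also occurred in the pseudogene Gm13192, 43.4% in Rps28 and 38.9% in the pseudogene Gm10443; a stretch can count for more than 1 of them. The level of Gm10263 is uncertain for that reason.

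Bfsp2 (ENSMUSG00000032556) lies at chr9:103424924-103480420 on the minus strand, and Hps1 (ENSMUSG00000025188) at chr19:42755105-42779978, also on the minus strand. Both are crossed by a gene on the other strand: exons of 5830418P13Rik cover 201 of the 1662 bases of Bfsp2-201 (12.1%), all coding, and exons of Gm16244 cover 239 of the 2952 bases of the Hps1 transcript with the longest coding sequence (8.1%), none coding. Whether counting used the strand was not given in the sources used here, so reads from these stretches could belong to either gene. The end of the Bfsp2 coding sequence is shown with the covered bases in capitals, and the start of the Hps1 coding sequence with its start codon in capitals.
Bfsp2: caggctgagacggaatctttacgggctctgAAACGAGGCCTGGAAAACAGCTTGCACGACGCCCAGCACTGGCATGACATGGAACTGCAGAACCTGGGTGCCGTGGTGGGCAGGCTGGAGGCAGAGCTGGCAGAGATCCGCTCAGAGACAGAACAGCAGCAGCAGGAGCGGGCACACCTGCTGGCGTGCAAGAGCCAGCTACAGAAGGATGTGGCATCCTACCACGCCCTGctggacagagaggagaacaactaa
Hps1: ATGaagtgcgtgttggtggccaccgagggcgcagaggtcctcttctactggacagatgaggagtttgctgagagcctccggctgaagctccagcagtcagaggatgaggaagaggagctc
No stretch of 75 bases from AA465934 occurred in a transcript of another gene.

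Counts to genes ran from 24936879 to 41532464 per PFC library and from 22387525 to 43963295 per NAc library, apart from PFC number 10 (2 weeks after morphine), with 5182601 counts and 10563 genes with a count against 18166 to 21142 in the other PFC libraries. Bfsp2, AA465934, Hps1 and Gm10263 were all at 0 counts in PFC number 10, which at its depth allows up to 0.579 CPM (counts scaled to a common library size) for each. The 2 libraries numbered 27, labelled female under chronic morphine, held Y-linked transcripts and little Xist, against their label. Results are given with and without these 3 libraries where the change matters. Drd1 and Adora2a, markers of striatal neurons, ran up to 290.0 and 467 CPM in NAc and to 9.27 and 4.29 in PFC, as the region labels state, though the lowest NAc library had 9.03 and 6.48. The labels give the cell type as neuron, while 10 astrocyte markers summed to 3010 to 6360 CPM and 11 oligodendrocyte markers to 3430 to 14300 CPM, so the punches held glial RNA too. In such bulk tissue, fewer cells of a type and less RNA per cell cannot be told apart. The 12 striatal markers varied widely between NAc libraries, with sums from 528 to 5440 CPM in saline, 573 to 8600 in chronic morphine, 1110 to 7460 at 24 h and 2710 to 6900 at 2 weeks; the part of this in the NAc results was not tested.

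**Figure D1:**
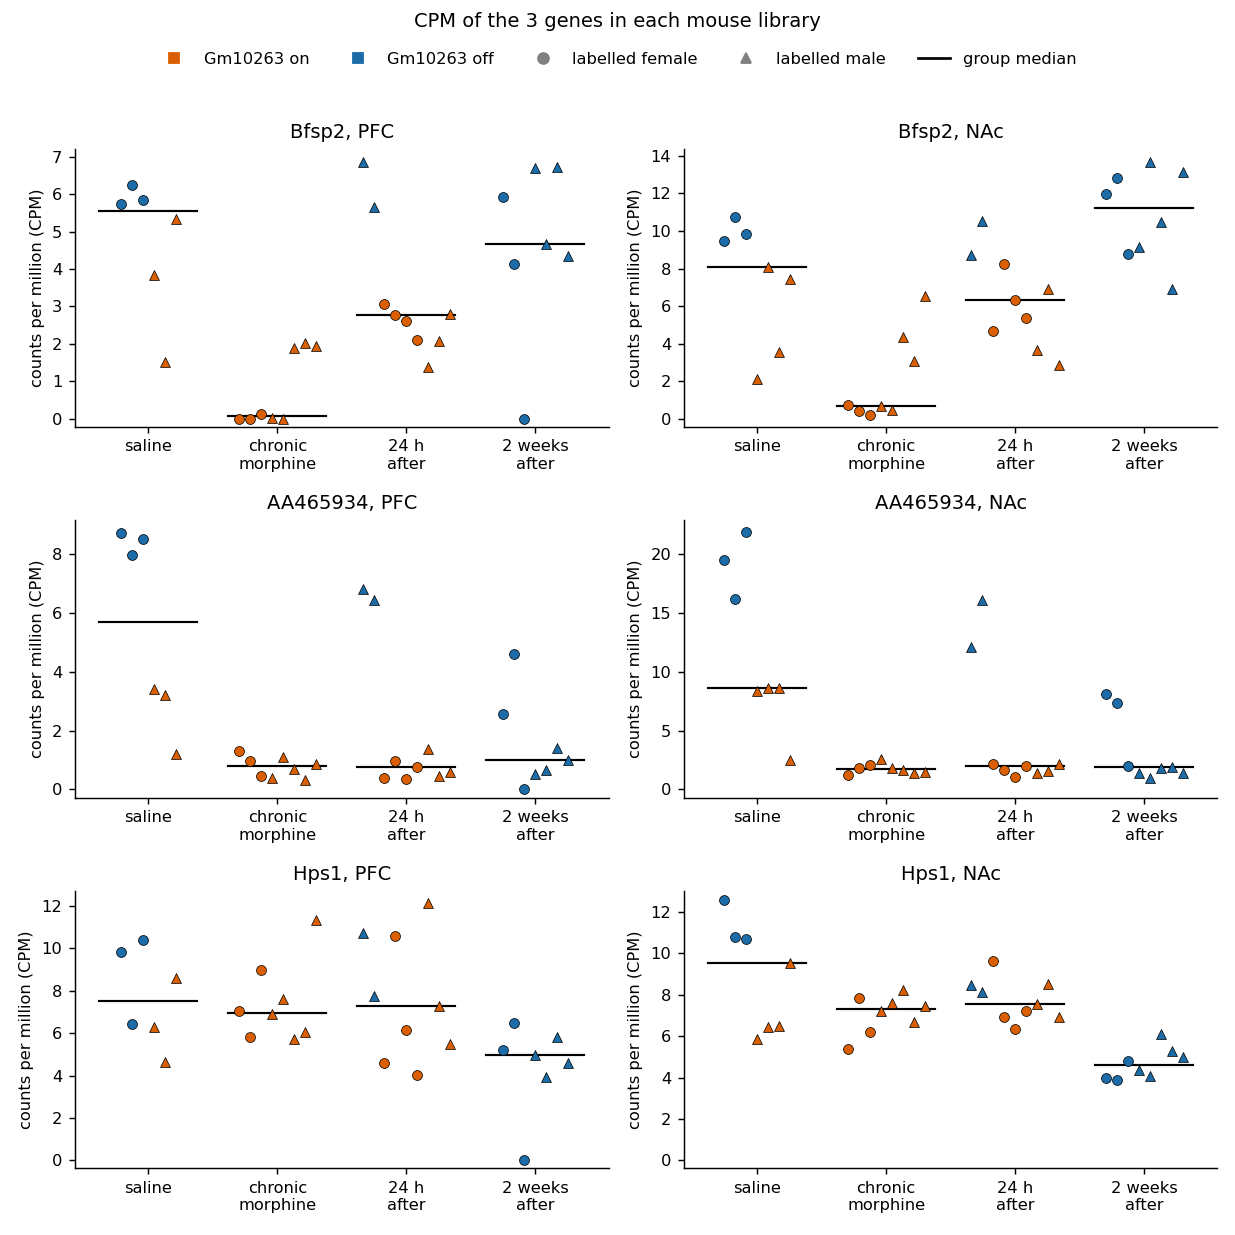
CPM (y axis) of Bfsp2, AA465934 and Hps1 in every PFC (left) and NAc (right) library by treatment (x axis), in order of library number, with colour for the state of Gm10263, shape for the labelled sex and a bar for the group median. Bfsp2 was near 0 in 5 chronic-morphine libraries, AA465934 was highest in the saline females and Hps1 was lowest at 2 weeks; PFC number 10 is the point at 0 at 2 weeks.

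Bfsp2 was low or undetected in 5 of the 8 chronic-morphine libraries of each region, and these were the same 5 numbers, 25 to 29. In PFC, these libraries held 0, 0, 5, 1 and 0 counts of Bfsp2, or 0 to 0.125 CPM, while numbers 30, 31 and 32 had 1.90, 2.02 and 1.95 CPM. The 3 libraries without a count allow up to 0.103, 0.126 and 0.109 CPM. Saline PFC libraries ran from 1.52 to 6.25 CPM with a median of 5.54, so numbers 30 to 32 reached the lower end of the saline range and numbers 25 to 29 did not. The 24 h libraries had a lowest, median and highest value of 1.39, 2.78 and 6.87 CPM, and the 2 weeks libraries other than number 10 ran from 4.14 to 6.72 CPM. The log2 fold change of chronic morphine against saline in PFC, on which the gene was chosen, was -4.17 ± 0.76 (SE, n = 8 and 6). Without the numbers 10 and 27 it was -6.02, and in males alone -1.59. These values share their saline libraries with the other PFC comparisons.

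The NAc libraries, which played no part in the choice of Bfsp2, gave a test of the same comparison. NAc numbers 25 to 29 had 0.721, 0.427, 0.182, 0.664 and 0.486 CPM of Bfsp2, against 4.35, 3.10 and 6.52 CPM in numbers 30 to 32. Saline NAc libraries ran from 2.12 to 10.7 CPM with a median of 8.08, and did not overlap with numbers 25 to 29. Bfsp2 fell under chronic morphine in NAc, with a log2 fold change of -2.66 ± 0.44 (SE, n = 8 and 7), a 6.32-fold difference, with an edgeR adjusted p of 0.00184 over 18382 genes. In that comparison 1.69% of genes were called, that is, had an adjusted p under 0.05. The call was lost with sex as an additive term (-1.95, edgeR adjusted p = 0.0571), and with that term and the Gm10263 state (-1.47, 0.249). Bfsp2 was also lower under chronic morphine than at 24 h in NAc, by -2.45 ± 0.43 (SE, n = 8 and 9; edgeR adjusted p = 0.0115), where 0.087% of genes were called. The same numbers may mark the same mice in both regions, so the NAc value may not be independent of the PFC value.

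Against saline, Bfsp2 passed the test at neither 24 h nor 2 weeks. In NAc, the 24 h libraries ran from 2.86 to 10.5 CPM and the 2 weeks libraries from 6.91 to 13.7 CPM, both overlapping with saline. The log2 fold changes were -0.21 (edgeR adjusted p = 0.834) at 24 h and 0.58 (0.872) at 2 weeks, and in PFC -0.54 (1.0) and -0.04 (0.998). By median, the NAc order was 2 weeks (11.2 CPM), saline (8.08), 24 h (6.32) and chronic morphine (0.692), and neighbouring groups overlapped at every step. In males alone the chronic-morphine change in NAc was -0.83 and was not called (edgeR adjusted p = 0.576), with libraries 28 and 29 low and 30 to 32 within the saline range. Saline females (9.46 to 10.7 CPM) were all above saline males (2.12 to 8.08 CPM) in NAc, and likewise in PFC. The test of a sex difference in the chronic-morphine change gave 3.66 ± 0.87 (males minus females; edgeR adjusted p = 0.123) in NAc, where 0.0544% of genes were called. Number 27, labelled female but with Y-linked transcripts, counted as female in that test and was not among the males alone. It had 0.182 CPM of Bfsp2 in NAc.

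AA465934 was highest in the 3 saline females and low in most morphine-treated libraries. In NAc, saline females (numbers 1 to 3) had 19.5, 16.2 and 21.9 CPM, and saline males (4 to 7) had 8.34, 8.60, 8.60 and 2.52 CPM. The chronic-morphine libraries ran from 1.27 to 2.59 CPM with a median of 1.76, so the highest of them lay just above the lowest saline library. Their log2 fold change against saline, which chose the gene, was -2.72 ± 0.44 (SE, n = 8 and 7). At 24 h, numbers 16 and 17 had 12.1 and 16.1 CPM while the other 7 libraries ran from 1.10 to 2.19. At 2 weeks, numbers 8 and 9 had 8.14 and 7.36 CPM while the other 6 ran from 0.995 to 1.99. The gene thus took a high and a low level within 3 of the 4 treatment groups in NAc.

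PFC, whose libraries were not used to choose AA465934, showed the same pattern by number. Since the same numbers may mark the same mice, the PFC values may not be independent of the NAc values that chose the gene. Saline females had 8.71, 7.94 and 8.51 CPM there, and saline males (5 to 7) had 3.41, 3.20 and 1.19 CPM. Chronic-morphine libraries had 0.326 to 1.30 CPM with a median of 0.785 and overlapped only with saline number 7. AA465934 fell under chronic morphine in PFC, with a log2 fold change of -2.57 ± 0.57 (SE, n = 8 and 6; edgeR adjusted p = 0.032), where 0.417% of 17966 genes were called. That call was lost in 9 of the 30 fits that left out 1 PFC library, those without number 1, 2, 3, 5, 6, 25, 26, 27 or 28, with edgeR adjusted p from 0.0617 to 0.13, and stood without both 10 and 27 (0.019). At 24 h, PFC numbers 16 and 17 had 6.80 and 6.42 CPM against 0.369 to 1.36 in the other 7. At 2 weeks, numbers 8 and 9 had 2.55 and 4.59 CPM against 0.512 to 1.42 in numbers 11 to 15.

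The 24 h and 2 weeks changes of AA465934 did not pass the edgeR test in either region. In NAc, against the same saline libraries that chose the gene, the log2 fold changes were -1.79 ± 0.40 at 24 h (edgeR adjusted p = 0.0577; 0.163% of genes called) and -1.97 ± 0.43 at 2 weeks (0.135; 0.00544% called). DESeq2 called both, with adjusted p = 0.00264 and 0.00255. In PFC the values were -1.73 (edgeR adjusted p = 0.639; 0.0779% called) and -1.61 (0.854; 0.00557% called). Leaving out NAc number 16 or number 17 brought the NAc 24 h change under the threshold (edgeR adjusted p = 0.033 and 0.0128). Males alone gave -0.08 at 24 h in NAc (edgeR adjusted p = 0.998) and 0.27 in PFC, the opposite direction, while females alone gave -3.49 in NAc (0.00207); numbers 16 and 17 are males and 18 to 21, all low, are females.

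**Figure D2:**
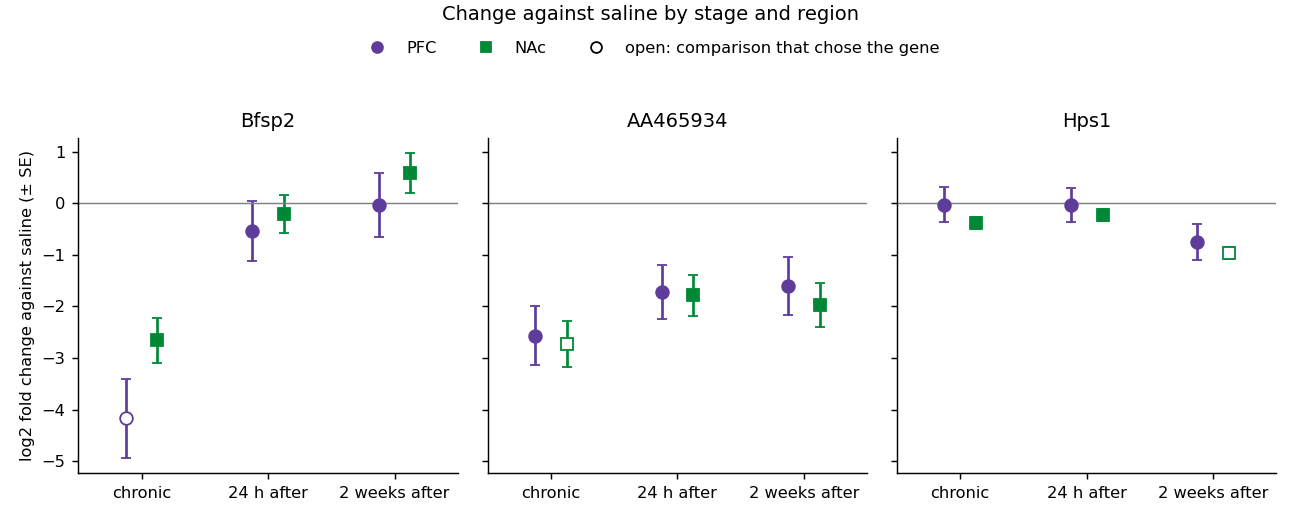
Log2 fold change against saline (y axis) at each stage (x axis) in PFC (circles) and NAc (squares) for each gene, with bars of 1 standard error; open symbols mark the comparison that chose the gene. Bfsp2 stood at -4.17 in PFC and -2.66 in NAc under chronic morphine, AA465934 had negative values at all 3 stages, and Hps1 stood at -0.75 and -0.97 at 2 weeks.

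Hps1 was lowest at 2 weeks after morphine in NAc, with a smaller fold change and a smaller standard error than the other 2 genes had there under chronic morphine. At 2 weeks, NAc libraries ran from 3.90 to 6.09 CPM with a median of 4.58. Saline NAc libraries ran from 5.84 to 12.6 CPM with a median of 9.54, so the groups overlapped by 1 library of 2 weeks (number 13) and 1 of saline (number 4). The log2 fold change that chose the gene was -0.97 ± 0.12 (SE, n = 8 and 7), with -1.44 in females and -0.52 in males. The saline females, at 12.6, 10.8 and 10.7 CPM, were above all other NAc libraries, and 3 of the 4 saline males were between 5.84 and 6.48 CPM.

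The 24 h NAc libraries ran from 6.32 to 9.63 CPM, all above every 2 weeks library. The difference between these groups was 0.75 ± 0.11 on the log2 scale (SE, 24 h minus 2 weeks, n = 9 and 8), given without a test because the 2 weeks libraries chose the gene. Chronic-morphine NAc libraries ran from 5.36 to 8.21 CPM, and only number 25 fell below the highest 2 weeks library. Against the saline libraries, which also took part in choosing the gene, chronic morphine gave -0.38 ± 0.12 (edgeR adjusted p = 0.0864; DESeq2 adjusted p = 0.0407) and 24 h gave -0.23 (edgeR adjusted p = 0.414). Both turned positive in males alone, at 0.07 and 0.16.

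In PFC, Hps1 did not pass any test against saline. The 2 weeks libraries other than number 10 ran from 3.94 to 6.47 CPM, and the saline libraries from 4.64 to 10.4 CPM. The log2 fold change at 2 weeks was -0.75 ± 0.35 (SE, n = 7 and 6; edgeR adjusted p = 0.947), and -0.51 without number 10. Under chronic morphine PFC libraries ran from 5.72 to 11.3 CPM and at 24 h from 4.04 to 12.1 CPM, with a log2 fold change of -0.03 for each (edgeR adjusted p = 0.994 and 1.0). All 4 treatment groups overlapped, and the range within the 24 h group covered nearly the whole range of the PFC libraries other than number 10.

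Bfsp2 and AA465934 had higher CPM in NAc than in PFC, and Hps1 did not pass that test. Averaged over treatments and sexes, the level in NAc minus that in PFC was 1.28 ± 0.27 on the log2 scale for Bfsp2 (edgeR adjusted p = 5.42e-05), 1.17 ± 0.24 for AA465934 (3.09e-05) and 0.05 ± 0.12 for Hps1 (0.734), over 62 libraries. These averages include the libraries that chose each gene, so their p-values are not independent of the choice. For Bfsp2 the choice rested on low values in PFC, which raise this difference. For AA465934 and Hps1 the choice rested on low values in NAc, which lower it. Regional differences were common, with 66.2% of 19266 genes called. Among the 29 numbers with both regions, number 10 left out, NAc was above PFC in 29 for Bfsp2, 28 for AA465934 and 19 for Hps1. Of the 9 differences of a stage effect between regions, some contain the value that chose the gene. These are Bfsp2 and AA465934 under chronic morphine and Hps1 at 2 weeks, so they are descriptions. For Bfsp2 under chronic morphine the difference was 1.52 ± 0.88. None of the others passed the test (edgeR adjusted p from 0.972 to 1.0), and they too reuse saline libraries of the choice. In these comparisons 0.0311% (chronic morphine), 0.0208% (24 h) and 0.00519% (2 weeks) of genes were called.

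**Figure D3:**
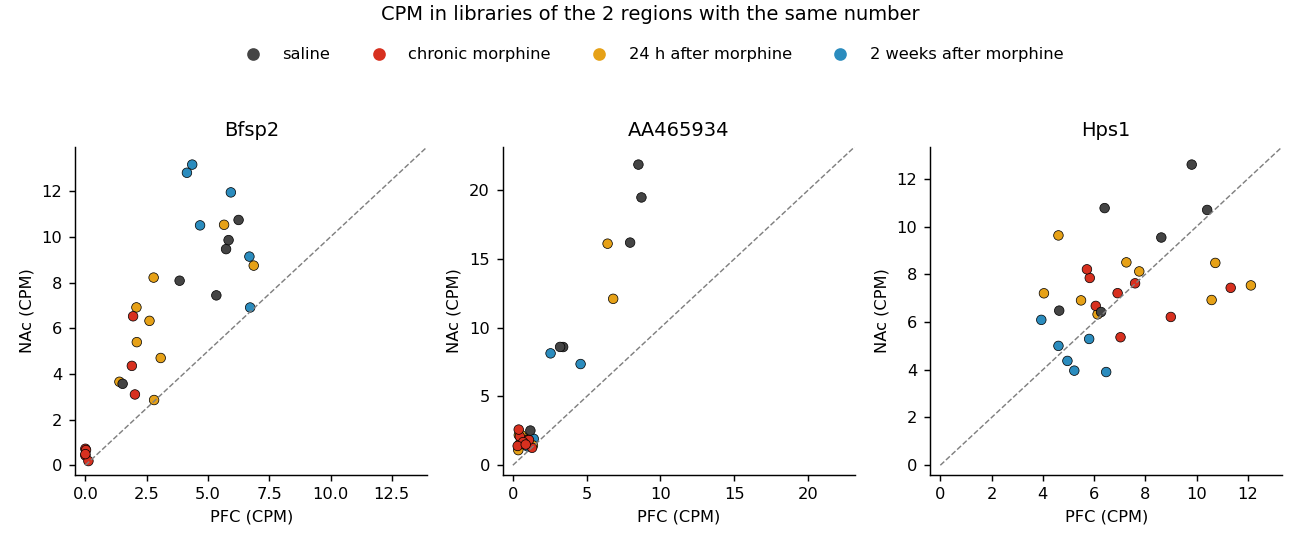
CPM in the NAc library (y axis) against the PFC library of the same number (x axis) for each gene, with colour for treatment and a dashed line at equal CPM; number 10 is left out. Bfsp2 and AA465934 lie above the line in 29 and 28 of 29 numbers, while Hps1 scatters around it.

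Gm10263 split the libraries into 37 in which it was on and 25 in which it was off, with a gap from -0.94 to 2.29 log2 CPM between the highest off and the lowest on library. The state was the same in both regions for all 30 numbers that had both. It followed treatment and sex closely: on in all 16 chronic-morphine libraries, off in all 15 libraries of 2 weeks, off in the 6 saline female libraries, on in the 7 saline male libraries, and on at 24 h except in males 16 and 17 (4 libraries). Within 1 treatment and sex, both states occurred in the 24 h males only. Rps28 itself was at 59.6 to 86.5 CPM in the off and 38.6 to 65.9 in the on libraries of NAc. In PFC the Rps28 medians were 61.2 CPM in the off and 45.5 in the on libraries.

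Bfsp2 was higher where Gm10263 was off. In NAc the 13 off libraries had 6.91 to 13.7 CPM of Bfsp2 with a median of 10.5, and the 19 on libraries had 0.182 to 8.22 with a median of 3.65; 4 on libraries lay at or above the lowest off library. In PFC, number 10 left out, the 11 off libraries had 4.14 to 6.87 CPM and the 18 on libraries 0 to 5.34, with 1 on library, saline male 7, inside the off range. Within the 24 h males, numbers 16 and 17 (off) had 6.87 and 5.66 CPM in PFC, while 22, 23 and 24 (on) had 1.39, 2.08 and 2.80. Their NAc values were 8.74 and 10.5 against 3.65, 6.91 and 2.86 CPM. The on libraries were not alike in NAc. There, chronic-morphine numbers 25 to 29, with the lowest Bfsp2, also had 15.8 to 17.2 CPM of Gm10263. The other on libraries of NAc had 7.73 to 12.7. In PFC these ranges overlapped, at 8.93 to 14.3 CPM in numbers 25 to 29 and 4.84 to 17.2 in the other on libraries. The highest PFC value of Gm10263 was in 24 h number 20, with 2.62 CPM of Bfsp2. With the state as a covariate, the chronic-morphine change of Bfsp2 in NAc was -2.11 (edgeR adjusted p = 0.0562).

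AA465934 followed the state in saline and at 24 h but not at 2 weeks. At 24 h, off libraries 16 and 17 were at 12.1 and 16.1 CPM in NAc and all 7 on libraries at or below 2.19. In saline, the off females were all above the on males in both regions. At 2 weeks every library was off, yet only numbers 8 and 9 were above 2 CPM in both regions. Of the 13 off libraries in NAc, 8 were at or below the highest on library. With the state as a covariate, the 2 weeks change in NAc was -3.49 (edgeR adjusted p = 2.81e-06). That comparison reuses the saline libraries that chose the gene, so its p-value is not independent of the choice. The chronic-morphine change in PFC was -1.04 (edgeR adjusted p = 1.0). The covariate rests on the 5 males of 24 h in each region.

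Hps1 showed no such split over all treatments. In NAc saline, the off females (10.7 to 12.6 CPM) were above the on males (5.84 to 9.54 CPM). In PFC saline the 2 states overlapped (6.41 to 10.4 and 4.64 to 8.62 CPM). Within saline, state and sex cannot be told apart. In NAc, off libraries held the lowest values (the 2 weeks group, 3.90 to 6.09 CPM) and the highest (the saline females, 10.7 to 12.6 CPM), with all 19 on libraries between 5.36 and 9.63. In PFC, number 10 left out, the off libraries ran from 3.94 to 10.7 CPM and the on libraries from 4.04 to 12.1. Among the 24 h NAc males, the off libraries (8.47 and 8.12 CPM) lay within the range of the on libraries (6.91 to 8.50). The 2 weeks change in NAc was -1.04 with the state as a covariate.

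**Figure D4:**
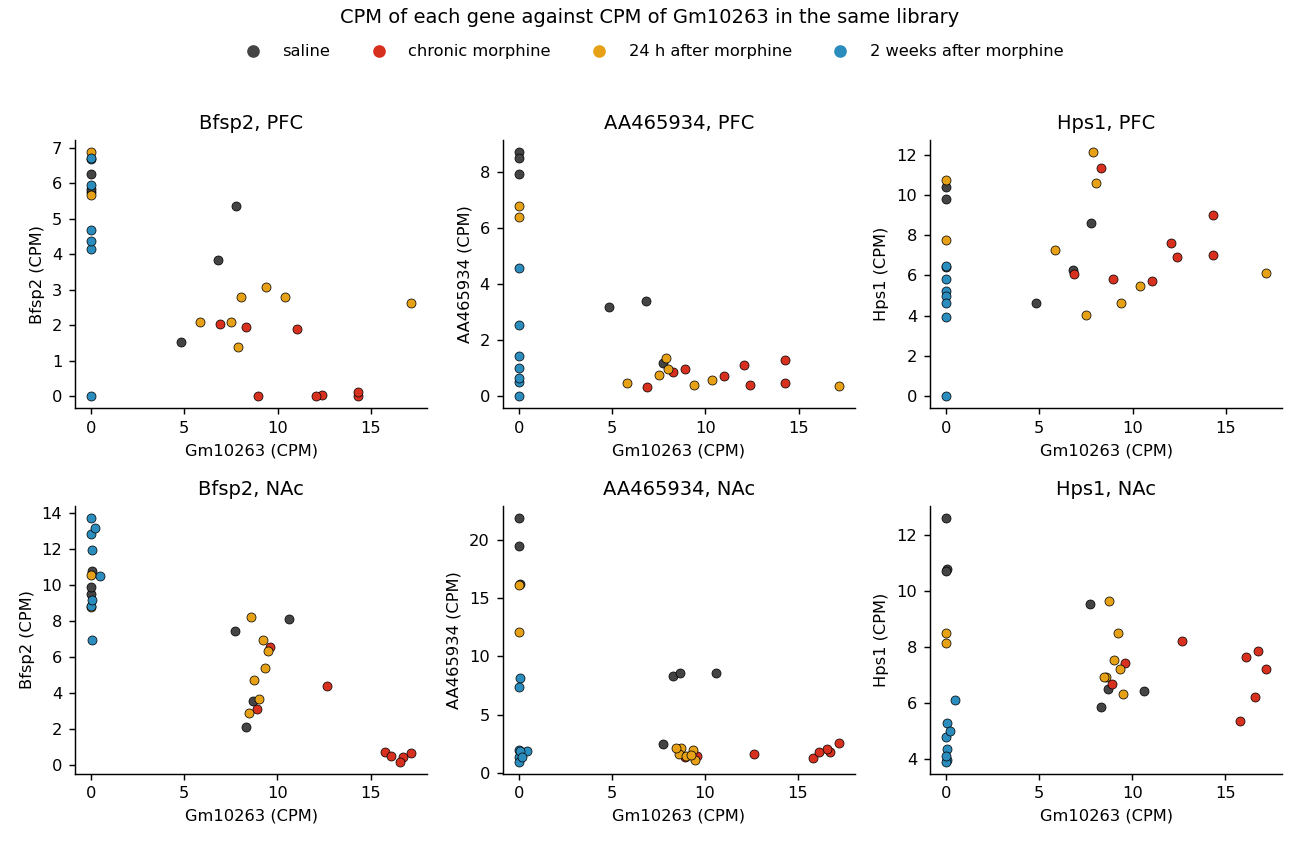
CPM of each gene (y axis) against CPM of Gm10263 (x axis) in the same library, for PFC (top) and NAc (bottom), with colour for treatment. The off libraries stand at the left edge; Bfsp2 is lowest at the highest Gm10263 in NAc, AA465934 is high only at the left edge and in saline, and Hps1 shows low and high values at the left edge.

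Other genes followed these 3 from library to library. Likeness was measured by Pearson's r of log2 CPM across the 30 PFC and, apart, the 32 NAc libraries, among 17402 genes, and ranked by the weaker region; the libraries fall into clumps, and r serves only to rank. Most like Bfsp2 were H2-T23 (r = 0.88 in PFC and 0.889 in NAc) and H2-T22 (0.869 and 0.897), nonclassical class I genes of the major histocompatibility complex, then Rps18-ps1, Hmgn2 and Rps18. In the chronic-morphine numbers 25 to 29, H2-T23 was at 0.582 to 1.77 CPM in PFC and 0.749 to 2.78 in NAc. Numbers 30 to 32 had 12.1, 9.91 and 7.79 CPM of H2-T23 in PFC and 5.64, 6.38 and 7.46 in NAc. The lowest saline library had 8.12 CPM of H2-T23 in PFC and 3.14 in NAc. The 5 libraries low in Bfsp2 were thus below every saline library in H2-T23. Because H2-T23 was picked for its likeness to Bfsp2 over these same libraries, that is a description.

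**Figure D5:**
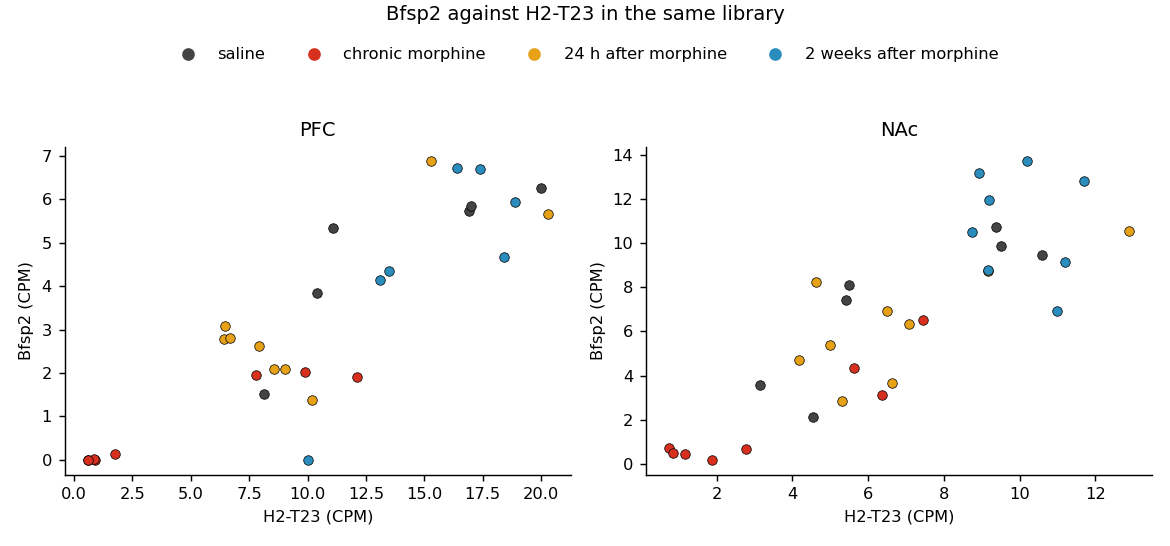
CPM of Bfsp2 (y axis) against CPM of H2-T23 (x axis) in each PFC (left) and NAc (right) library, with colour for treatment. In both regions 5 chronic-morphine libraries lie near the origin and the other 3 lie among the saline and 24 h libraries.

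The genes most like AA465934 were Gm19587 (r = 0.733 in PFC and 0.859 in NAc), Dgke, a diacylglycerol kinase (-0.671 and -0.699), Ide, an insulin-degrading protease (0.641 and 0.643), Mrpl55 (-0.639 and -0.724) and Hspa1b (-0.612 and -0.592). Ide was at 70.4, 76.3 and 52.2 CPM in the saline females and at 67.8 or more in numbers 16 and 17 of NAc, against 32.2 to 45.8 in all other NAc libraries. Numbers 8 and 9, where AA465934 was intermediate, lay within that lower range of Ide. For Hps1 the leading genes were 1810013L24Rik (-0.738 and -0.637), the slingshot phosphatase gene Ssh3 (0.962 and 0.604), the complement gene C4a (0.634 and 0.604), Gm9770 and Gm8069. In PFC, r was 0.911 for Gm9770 and -0.645 for Gm8069 with all libraries. Without the numbers 10 and 27 it was 0.279 for Gm9770, 0.618 for Ssh3, 0.483 for C4a and -0.671 for 1810013L24Rik. For Gm8069 it was then 0.081, with the sign turned. Among the genes named for AA465934, Mrpl55 then had -0.487 in PFC. Gm19587, Dgke, Ide and Hspa1b had 0.748, -0.678, 0.664 and -0.601. C4a was at or below 2.11 CPM in every library. Of the 15 genes named for likeness, 5 (H2-T23, H2-T22, Rps18, Hspa1b and C4a) lie on chromosome 17, which holds 4.69% of the ranked genes. These 5 lie between bases 33951999 and 36042747, and the share of ranked genes in that stretch was not computed. Both the chromosome and the stretch were picked out after the values were seen.

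The 3 genes did not resemble each other closely. Between Bfsp2 and AA465934 r was 0.484 in PFC and 0.28 in NAc, between Bfsp2 and Hps1 0.336 and -0.084, and between AA465934 and Hps1 0.565 and 0.36. Without the numbers 10 and 27, the PFC values were 0.332, -0.021 and 0.374.

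Genes near the 3 did not pass the test in any stage comparison. Within 200000 bases of Bfsp2, 13 other genes are annotated and 5 were tested in PFC and 4 in NAc; for AA465934 these counts were 16, 7 and 9, and for Hps1 7, 3 and 4. With edgeR, 0 neighbours were called in any of the 6 stage comparisons, as with DESeq2, while 2 of 27, 8 of 48 and 3 of 21 results had an unadjusted p under 0.05 (7.41%, 16.7% and 14.3%). Over all genes in the same comparisons 8.30% of results had such a p, and DESeq2 called 0.988%. Snord7 stayed at or below 0.48 CPM in every library; in NAc its 2 weeks value was -2.78 ± 0.61 (edgeR adjusted p = 0.135). The antisense gene 5830418P13Rik was at 0 to 1.42 CPM in PFC and at 0 in 12 of 32 NAc libraries, with a chronic-morphine value of -0.57 in PFC (edgeR adjusted p = 0.901). Tmem108, which lies 2526 bases from Bfsp2 and was tested in both regions, had 0.425 in PFC and -0.29 in NAc (0.413 and 0.731). Gm16244, across the start of Hps1, had -1.38 at 24 h in NAc (edgeR adjusted p = 0.185).

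No other gene of the lists drawn up for the families of Bfsp2 and Hps1 was called by edgeR. Of 28 intermediate filament and lens genes, 19 were tested in PFC and 17 in NAc, and edgeR called 0 in the 6 stage comparisons, with 12 results (11.1%) at an unadjusted p under 0.05 and 0 DESeq2 calls; the list median under chronic morphine was 0.09 in PFC and -0.06 in NAc, against 0.01 and -0.01 over all genes. All 24 genes for BLOC and AP-3, the complexes of lysosome-related organelles, were tested in NAc, with 0 called by edgeR or DESeq2 and 13 such results (9.03%) over both regions, and a list median of -0.03 at 2 weeks in NAc against 0.00 over all genes. The 7 lists of cell markers likewise held 0 genes called by edgeR, with 29 of 444 results (6.53%) at an unadjusted p under 0.05, and DESeq2 called 4 results (0.901%), all in NAc: Slc17a7 and Acta2 higher at 24 h, and Sox9 lower and Aif1 higher under chronic morphine. The striatal list median was 0.58 under chronic morphine in NAc against -0.01 over all genes. The choroid plexus list median was 1.85 under chronic morphine in PFC against 0.01 over all genes, and its summed level was 3560 CPM in number 31 and 5.72 to 35.4 CPM in the other 7 libraries of that group. Without number 31, AA465934 remained called in PFC (edgeR adjusted p = 0.0486).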

How the data were processed

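The authors deposited 1 table of raw counts per gene for the 62 mouse libraries. The submitters' processing notes name FastQC, cutadapt, STAR, RSEM, Trimmomatic, HISAT2 and GRCm38 without roles; the counter and strand setting were not given in the sources used here. Of 46078 gene rows, 45143 matched a symbol in the GENCODE vM21 annotation, and 5 rows of unassigned reads and 2 reporter rows were left out; reads placed at more than 1 site had a median share of 14.693%. No library repeated another: at most 1.12% of genes with 20 or more counts in a pair of libraries had equal counts.

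From these counts, edgeR 4.0.16 (TMM, filterByExpr, quasi-likelihood F test, R 4.3.3) was fitted in each region with 8 treatment-by-sex means, with contrasts averaged over sexes; a fit of 16 means held both regions. P-values were Benjamini-Hochberg adjusted over all genes tested and called under 0.05. DESeq2 1.42.0, median-of-ratios scaling, no filter, additive sex, 1 sex, the Gm10263 state as a covariate, a replicate block and leaving out libraries were alternatives. Levels are CPM with TMM over all libraries; likeness used log2 CPM with a prior count of 2. Gm10263 was on above the middle of the largest gap in its log2 CPM. Upper limits for 0 counts use 3 counts and cover counting error only. The fits were tested on simulated data. Named genes were the 3 genes, Gm10263, the 5 genes most like each, ranked by the lower absolute r of the regions with the same sign, and adjacent genes, of which 1 is not reported here. The genes, lists and tests were chosen with earlier results of these data known. The rat libraries were not used here.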

Additional observations from a re-analysis of the deposited data

Results flagged for a closer look

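In PFC at 2 weeks after morphine, number 10 had 0 CPM of Bfsp2 and 0 CPM of Hps1, each far from the other libraries of its group (4.14 to 6.72 and 3.94 to 6.47 CPM). These were 2 of 24 groups of 4 to 10 libraries tested for a value that stands apart, and chance alone marks about 1 in 20. Number 10 held 5182601 counts and 10563 genes with a count, and 21.1% of its reads were not aligned.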

How the results depend on the processing

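Values here are log2 fold changes against saline unless said otherwise, with edgeR adjusted p in parentheses. For AA465934 and Hps1 in NAc, and Bfsp2 in PFC, they reuse the saline libraries that chose the gene. Any p-values of those are not independent of the choice. Median-of-ratios scaling changed no direction and no call among the changes, regional differences and sex differences it was run for. The share of genes called under chronic morphine went from 1.69% to 1.82% in NAc and from 0.417% to 0.429% in PFC. At 24 h in PFC it went from 0.0779% to 0.0835%. DESeq2 called AA465934 at 24 h (-1.78, DESeq2 adjusted p 0.00264) and 2 weeks in NAc (-1.97, 0.00255) and Hps1 under chronic morphine in NAc (-0.38, 0.0407). It called 0.963%, 0.256% and 0.0278% of the genes tested in PFC (chronic, 24 h, 2 weeks) and 3.76%, 0.718% and 0.163% in NAc, against 0.417%, 0.0779% and 0.00557% and 1.69%, 0.163% and 0.00544% with edgeR.

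In males alone, Bfsp2 was -1.59 (PFC) and -0.83 (NAc, 0.576) under chronic morphine, 0.074 (PFC) and 0.29 (NAc) at 24 h and 0.66 at 2 weeks in PFC. AA465934 was -1.93 (PFC, chronic, 0.483) and 0.27 (PFC, 24 h). Hps1 was 0.21 and 0.42 (PFC, chronic and 24 h), 0.066 and 0.16 (NAc, chronic and 24 h) and -0.52 (NAc, 2 weeks). The share of genes called was 0.160% and 0.0114% (PFC, 24 h and 2 weeks) and 0.0516%, 0.0459% and 0.0229% (NAc). In females alone, Bfsp2 was -6.78 (PFC, chronic), AA465934 -3.19 (PFC, chronic, 0.778) and -3.49 (NAc, 24 h, 0.00207), and Hps1 -1.44 (NAc, 2 weeks). The share of genes called was 0.0890% and 0% (PFC, chronic and 2 weeks) and 0.292% and 0.0229% (NAc).

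With the Gm10263 state as a covariate, Bfsp2 was -2.11 (NAc, chronic, 0.0562) and 0.071 (NAc, 24 h). AA465934 was -1.04 (PFC, chronic, 1.0), -1.20 (NAc, chronic) and -3.49 (NAc, 2 weeks, 2.81e-06), and Hps1 0.051 and 0.018 (PFC, chronic and 24 h). The share of genes called was 0.0612%, 0.0501% and 0.0111% in PFC and 0.598%, 0.343% and 0.0707% in NAc. With sex additive, Bfsp2 was -1.95 (NAc, chronic, 0.0571) and AA465934 -2.75 (PFC, chronic, 0.0959), with 0.262% and 0% of genes called in PFC (chronic, 2 weeks) and 0.936%, 0.0870% and 0.0435% in NAc. With both, Bfsp2 was -2.33 (PFC, chronic), -1.47 (NAc, chronic, 0.249) and 0.033 (NAc, 24 h), AA465934 -1.41 (PFC, chronic, 0.884) and -3.17 (NAc, 2 weeks, 0.000289), and Hps1 0.17 and 0.11 (PFC, chronic and 24 h). The share of genes called was then 0.200% and 0.0111% in PFC (chronic, 2 weeks) and 0.180%, 0.0762% and 0.0816% in NAc. Without a filter on low counts, 0% of genes were called in PFC at 2 weeks, and 0.642% and 0.0486% in NAc (chronic, 24 h). The cause of these changes was not tested.

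Without number 27, Bfsp2 was -6.00 and AA465934 -2.41 (0.13) under chronic morphine in PFC, and 0.636% of genes were called in NAc. Without 10 and 27, a setting chosen after seeing the data, Bfsp2 was -6.02 (chronic) and 0.20 (2 weeks) in PFC, with 1.0% and 0.162% of genes called in PFC (chronic, 24 h) and 0.636% in NAc (chronic). Leaving out 1 library at a time, for chronic, 24 h and 2 weeks in that order, Bfsp2 ranged from -6.00 to -3.92, -0.73 to -0.35 and -0.33 to 0.20 in PFC and from -2.93 to -2.47, -0.34 to -0.07 and 0.45 to 0.71 in NAc. AA465934 ranged from -2.75 to -2.41, -1.99 to -1.59 and -1.99 to -1.37 in PFC and from -2.86 to -2.62, -2.10 to -1.65 and -2.12 to -1.76 in NAc. Hps1 ranged from -0.14 to 0.086, -0.21 to 0.087 and -0.98 to -0.51 in PFC and from -0.46 to -0.29, -0.29 to -0.13 and -1.02 to -0.88 in NAc. The share of genes called ranged from 0.249% (without 1) to 0.960% (without 10), 0.0596% to 0.162% (without 10) and 0% (without 8) to 0.00559% in PFC and from 0.636% (without 27) to 3.00% (without 25), 0.0159% (without 1) to 0.267% (without 17) and 0.0053% to 0.0272% (without 17) in NAc.

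With the number as a replicate block, NAc minus PFC levels were 1.40 (Bfsp2), 1.26 (AA465934) and 0.14 (Hps1), and the regional difference of the AA465934 effect turned to 0.096 at 24 h and 0.003 at 2 weeks; no call changed. Deviations of the 30 same-numbered pairs correlated at -0.004 to 0.235 (median 0.086), with 10 over 0.1, and the labels do not say what a number marks, so the pairing was not taken as given. That 23 of 30 PFC libraries correlated best with their own number is a hint of pairing from the data, not from the design.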
